A study of Mus musculus with 2 samples.

Results

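The genes described here encode the 5 Rel-family subunits of the transcription factor NF-kB (Nfkb1, Nfkb2, Rel, Rela and Relb) and 5 members of the IkB family (Nfkbia, Nfkbib, Nfkbie, Nfkbid and Bcl3). They were chosen by gene symbol, and all 10 had a row among the 19674 genes of the count table. Their transcripts were counted by bulk RNA-seq in MDFB, a line of wild-type mouse skin fibroblasts stimulated in culture. Of the 2 libraries, 1 came from cells given IL-17A, an inflammatory cytokine of T cells, and 1 from cells given vehicle, and both carried the same batch label. No dose and no length of treatment are given in the sources used here. With 1 library per group no difference below has a replicate check or a p-value. Every interval covers counting error only and leaves out any spread between cultures. Reads copied by PCR and not marked with molecular identifiers do not each stand for a molecule. The intervals can therefore be too narrow even for counting error.

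NF-kB is a family of dimers whose subunits share the Rel homology domain, which binds DNA and joins the partners. Rela, Relb and Rel also carry domains that activate transcription, whereas Nfkb1 and Nfkb2 encode precursors, p105 and p100, that are cut down to the DNA-binding subunits p50 and p52. The classical IkB proteins hold the dimers in the cytoplasm until IkB kinase (IKK) marks them for destruction, and several of their genes are themselves NF-kB targets, which closes a negative feedback loop. Nfkbid (IkB-NS) and Bcl3 encode nuclear IkB proteins that bind p50 or p52 on DNA and modify transcription. The IL-17 receptor reaches IKK through the adaptor Act1, encoded by Traf3ip2, and the ubiquitin ligase Traf6.

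The dimers recognise a sequence of 10 bases known as the kB consensus. Because several of these genes are described as NF-kB targets, the 250 bases before each RefSeq start of transcription (build GRCm38.p6) were searched for it on both strands. The promoter table matched 8 of the 10 genes, with 12 starts in all, while Nfkb1 and Relb were not matched. The consensus lay before at least 1 start of 5 genes, namely Nfkb2, Rel, Nfkbia, Nfkbie and Nfkbid, and of 8.23% of the 27025 genes in the table. A gene with several starts had more windows in which to match. Counted by start, the consensus lay before 7 of the 12, against 7.25% of the 32851 starts in the table. No match was found before the starts of Rela, Nfkbib and Bcl3, although a match began at base 3 of the Bcl3 transcript. For each of these 5 genes at least 1 stretch is shown (both before the first start of Nfkb2, and the nearer of 2 for Nfkbid), which places the motif beside genes with and without a 2-fold difference between the libraries. Each is read 5′ to 3′ on the strand of the gene, in GRCm38.p6, with the bases of the match in capitals.
Nfkb2 (chr19:46304688-46304717, plus strand): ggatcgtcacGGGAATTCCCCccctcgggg
Nfkb2 (chr19:46304716-46304736, plus strand): ggggccgaaaGGGGCTTTCCc
Nfkbia (chr12:55492657-55492686, minus strand): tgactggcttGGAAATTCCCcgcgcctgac
Nfkbie (chr17:45555584-45555613, plus strand): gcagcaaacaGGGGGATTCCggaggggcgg
Rel (chr11:23771042-23771071, minus strand): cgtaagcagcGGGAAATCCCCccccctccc
Nfkbid (chr7:30422215-30422244, plus strand): gggccgaacaGGAATTCCCCgtgcgcgggg

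The first Nfkb2 stretch and the Rel stretch each hold 2 overlapping matches, offset by 1 base and joined into 11 bases. The match of Nfkbia ended 20 bases before its start, those of Nfkb2 ended 29 and 2 bases before its first start, and that of Nfkbie ended 97 bases before. In Rel the distance was 82 bases. The Nfkbid match shown ended 172 bases before the second of its 3 starts, with another ending 217 bases before the same start and none before its other starts. Nfkb2 had further matches before its other starts. A match describes letters in this window and is not a bound site.

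**Figure D1:**
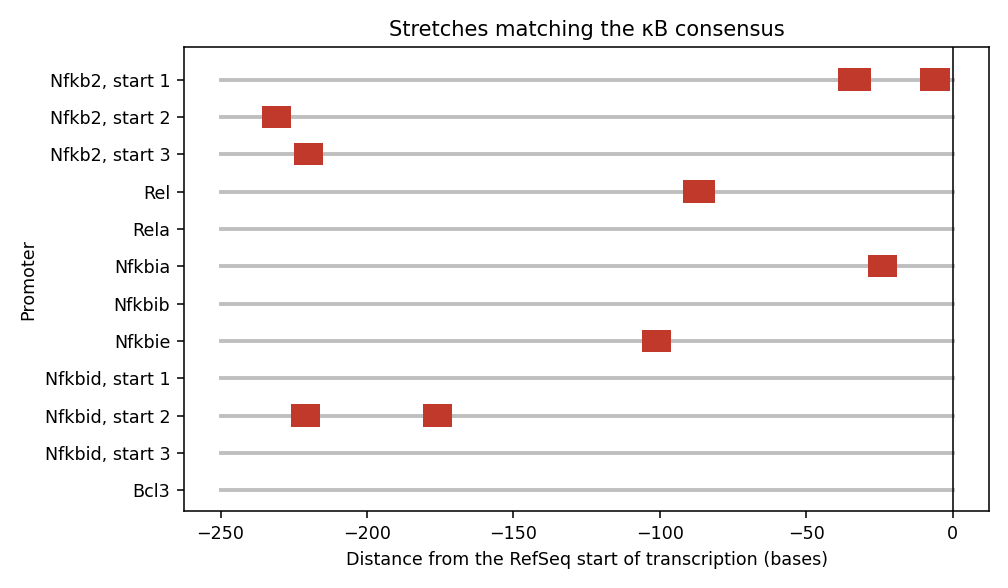
Stretches matching the kB consensus (red) in the 250 bases before each RefSeq start of 8 genes, with the distance from the start in bases on the horizontal axis and 1 row per start. Matches fall before Nfkb2, Rel, Nfkbia, Nfkbie and the second Nfkbid start, and none before Rela, Nfkbib or Bcl3.

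The libraries held 23559416 counts (IL-17A) and 24427027 counts (vehicle), and 13534 genes reached 50 counts summed over both and are called measured. Fibroblast markers were abundant, with all 9 listed markers measured and a summed level of 40937 CPM (counts scaled to the library size) with IL-17A and 55454 CPM with vehicle. The collagens carried most of this sum, with Col1a1 at a ratio of 0.641. Dcn was 6.15-fold higher, Fap was 2.33-fold lower (54 counts with IL-17A and 137 with vehicle), and Thy1 and Pdgfra had ratios of 1.00 and 0.961. Of the 9 markers, 3 had a ratio above 1, and the median log2 ratio was -0.46. All 8 myeloid markers were also present, Lyz2 most of all at 5227 and 3836 counts, and their summed level was 285 CPM with IL-17A and 199.8 CPM with vehicle. Of 5 lymphocyte markers, 4 were at 0 in both libraries, and the summed levels of 8 keratinocyte markers (4.13 and 3.28 CPM) and 6 endothelial markers (6.08 and 6.40 CPM) were low in the IL-17A and vehicle libraries. The 4 mural cell markers summed to 8.30 CPM with IL-17A and 39.3 CPM with vehicle. In bulk RNA, fewer cells of a type and less RNA per cell cannot be told apart.

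All 10 genes were measured. With IL-17A, 5 of them stood higher by 2-fold or more (Nfkbie, Nfkbia, Relb, Nfkb2 and Nfkb1), against 5.19% of all measured genes, and 0 stood lower by as much, against 3.69%. At a limit of 1.5-fold, 7 were higher, against 10.1%, and 0 lower, against 8.25%. At 3-fold, 2 were higher, against 2.51%, and 0 lower, against 1.62%. The IL-17A level exceeded the vehicle level for all 10, against 50.3% of measured genes. The 95% counting interval of the ratio lay wholly above 1 for 9, against 28.7%, and wholly below 1 for 0, against 26.5%. Rel was among the 9 with a lower end of 1.02, and its interval spanned 1 with total-count or upper-quartile scaling. The median log2 ratio was 0.99 over the 10 genes and 0.00 over all measured genes. The range among the 10 was wide, with log2 ratios between 0.12 for Nfkbid and 3.53 for Nfkbie.

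**Figure D2:**
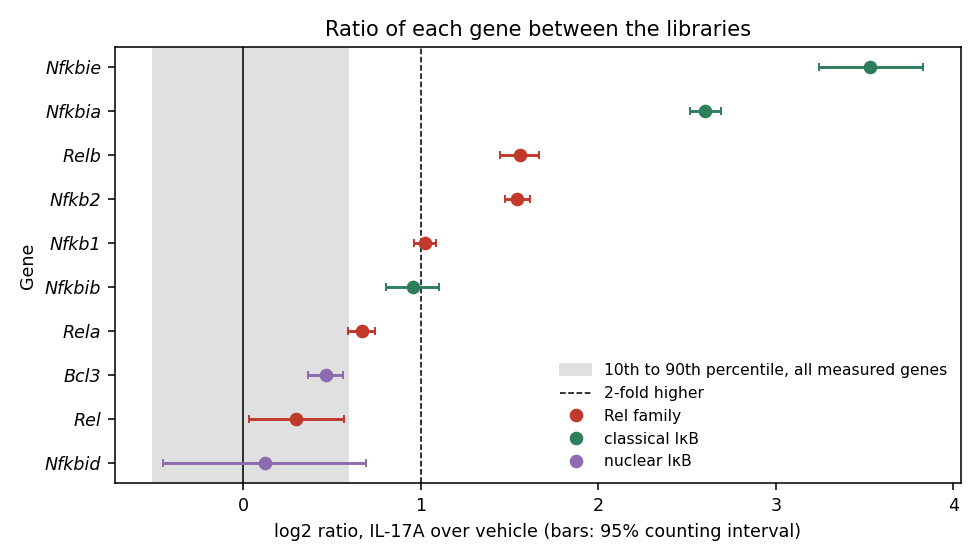
Log2 ratio of IL-17A over vehicle for each gene, with bars for the 95% counting interval, a dashed line at 2-fold and grey for the 10th to 90th percentile of all measured genes (-0.51 to 0.59). Nfkbie and Nfkbia stand highest at 3.53 and 2.60, and Bcl3, Rel and Nfkbid lie inside the grey band.

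Among the precursor subunits, Nfkb2, which encodes p100 and p52 of the non-canonical pathway, had 5852 counts with IL-17A and 2182 with vehicle. It was 2.91-fold higher (95% counting interval 2.77 to 3.06). Nfkb2 spans 46304320 to 46312385 on chromosome 19, plus strand, in GENCODE M21 (GRCm38). Of its exonic bases, 15.2% lie inside a noncoding RNA gene and 7.08% inside Psd on the opposite strand. The strand setting of the counting is not given in the sources used here, so reads from such a partner cannot be told apart; Psd had 154 counts with IL-17A and 352 with vehicle.

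Nfkb1, the gene of p105 and p50 (chromosome 3, 135584655 to 135691547, minus strand), had 5985 counts with IL-17A and 3204 with vehicle. It was the most counted subunit in both libraries. Its ratio of 2.03 (interval 1.94 to 2.12) stood at the 2-fold limit, and with the libraries scaled by total counts or by the upper quartile its log2 ratio was 0.95 or 0.98, inside the limit.

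Relb, the partner of p52 in the non-canonical pathway (chromosome 7, 19606217 to 19629438, minus strand), had 2488 counts with IL-17A and 919 with vehicle. Its 2.94-fold higher level (interval 2.73 to 3.18) was nearly that of Nfkb2, and the counting intervals of these ratios overlapped. Per kb of exon, the level of Nfkb2 was 1.45 times that of Relb with IL-17A (interval 1.39 to 1.52) and 1.47 times with vehicle (interval 1.36 to 1.59). The transcripts of these partners thus kept their proportion between the libraries within counting error.

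Rela encodes p65, the main activating subunit of the canonical pathway (chromosome 19, 5637483 to 5648130, plus strand). It had 3457 counts with IL-17A and 2365 with vehicle, a ratio of 1.59 (interval 1.51 to 1.67). This lay inside the 2-fold limit, with 91.4% of measured genes at a lower ratio. Per kb of exon the Relb level was 0.802 times the Rela level with IL-17A (interval 0.761 to 0.844) and 0.433 times with vehicle (interval 0.401 to 0.467).

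Rel encodes c-Rel, a subunit best known from lymphoid and myeloid cells (chromosome 11, 23736847 to 23770970, minus strand). It had 249 counts with IL-17A and 220 with vehicle, a ratio of 1.23 (interval 1.02 to 1.48). Of the 5 subunit genes it was by far the least abundant, at 1.45 CPM per kb of exon with IL-17A and 1.18 with vehicle. Of the 8 myeloid markers, 7 had a ratio above 1 and 0 reached 2-fold, with ratios between 0.952 for Adgre1 and 1.95 for Cd14, and their part in the Rel counts was not tested.

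**Figure D3:**
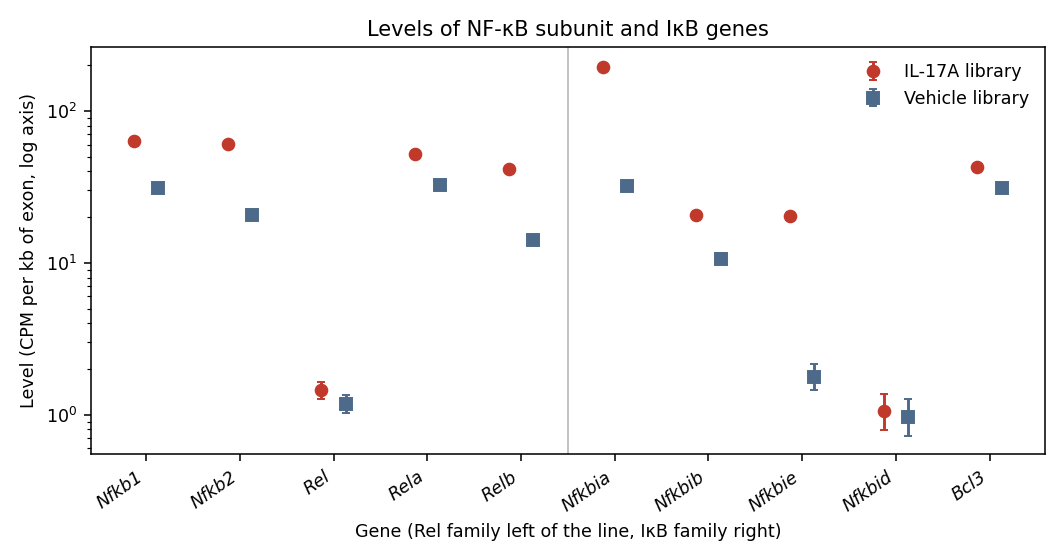
Level of each gene in CPM per kb of exon on a log axis, in the IL-17A library (red circles) and the vehicle library (blue squares), with bars for the exact 95% Poisson interval of the count. Nfkbia is highest with IL-17A at 193 CPM per kb, and Nfkbie stands at 20.5 with IL-17A and 1.77 with vehicle.

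Of the 3 classical inhibitors, Nfkbie and Nfkbia were higher and Nfkbib stood just inside the limit. Nfkbie encodes IkB-epsilon (chromosome 17, 45555703 to 45563169, plus strand) and had 1147 counts with IL-17A and 108 with vehicle. Its 11.5-fold higher level (interval 9.47 to 14.2) placed it 71st of the 13534 measured genes by ratio. It came from a low level, since 15.9% of measured genes had a lower CPM in the vehicle library, while 67.3% did in the IL-17A library.

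Nfkbia encodes IkB-alpha, an inhibitor that is rapidly made anew after NF-kB activation (chromosome 12, 55489410 to 55492647, minus strand). It had 7013 counts with IL-17A, the highest of the 10 genes, and 1256 with vehicle. It was 6.07-fold higher (interval 5.71 to 6.45) and stood 141st by ratio. In absolute level it differed most among the 10 genes, by 255 CPM, against 45.5 CPM for Nfkbie. Per kb of exon the Nfkbia level was 3.74 times that of Rela with IL-17A (interval 3.59 to 3.89) and 0.978 times with vehicle (interval 0.913 to 1.05).

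Nfkbib encodes IkB-beta, an inhibitor with slower turnover (chromosome 7, 28758251 to 28767512, minus strand). It had 1027 counts with IL-17A and 576 with vehicle, a ratio of 1.94 (interval 1.75 to 2.15) that spans the 2-fold limit. Of its exonic bases 33.1% lie inside Ccer2 and 1.94% inside Sirt2, both on the opposite strand, so its counts are uncertain. The interval did not overlap those of Nfkbia and Nfkbie.

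The nuclear IkB genes Bcl3 and Nfkbid had the lowest ratios of the 5 IkB genes. Bcl3, a cofactor of p50 and p52 homodimers (chromosome 7, 19808462 to 19822770, minus strand), had 1827 counts with IL-17A and 1440 with vehicle. Its ratio was 1.38 (interval 1.29 to 1.48), and 23.1% of its exonic bases lie inside an antisense gene, Gm16175. Nfkbid (chromosome 7, 30421732 to 30428746, plus strand) had 54 counts in each library and was near the minimum for a measured gene. Its ratio of 1.09 had an interval of 0.731 to 1.62, so that no difference was detectable at this depth. For Nfkbid, as for Rel, the part of the myeloid transcripts in these counts was not tested.

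Levels between genes were compared per kb of exon, with lengths of 1578 bases (Nfkbia) to 7466 bases (Rel) from GENCODE M21. In the IL-17A library the order was Nfkbia (193 CPM per kb), Nfkb1 (63.1), Nfkb2 (60.2), Rela (51.7), Bcl3 (42.9), Relb (41.4), Nfkbib (20.6), Nfkbie (20.5), Rel (1.45) and Nfkbid (1.05). The neighbours Nfkb1 and Nfkb2, Bcl3 and Relb, Nfkbib and Nfkbie, and Rel and Nfkbid had overlapping counting intervals. Compared directly, Nfkb2 was still slightly below Nfkb1, at 0.955 times its level (interval 0.921 to 0.991). In the vehicle library Rela (32.5), Nfkbia (31.8), Bcl3 (31.1) and Nfkb1 (31.1) could not be ordered, because each interval overlapped the next. Below them stood Nfkb2 (20.7), Relb (14.1), Nfkbib (10.6) and Nfkbie (1.77), with Rel (1.18) and Nfkbid (0.967) overlapping at the bottom. Per kb of exon a single gene, Nfkbia, thus stood apart at the top with IL-17A, where 4 genes lay level with vehicle. The level group depends on the division by length. Undivided, these 4 stood at 128 (Nfkb1), 94.6 (Rela), 57.6 (Bcl3) and 50.2 CPM (Nfkbia) with vehicle. With IL-17A, Nfkbia was still highest at 305 CPM, but nearer to Nfkb1 at 260 CPM.

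The summed level of the 10 genes was 496 CPM per kb with IL-17A and 176 with vehicle. Nfkbia made up 38.9% of it with IL-17A and 18.1% with vehicle, while Rela made up 10.4% and 18.5%, and Bcl3 8.65% and 17.7%. The 5 IkB genes summed to 278 CPM per kb with IL-17A and 76.3 with vehicle, and the 5 Rel-family genes to 218 and 99.5. The IkB sum leaves out Nfkbiz, which is described below. The precursor genes Nfkb1 and Nfkb2 are counted wholly with the Rel family. The ratio of these sums was 1.28 with IL-17A (approximate 95% counting interval 1.25 to 1.31) and 0.767 with vehicle (interval 0.737 to 0.798). With the 3 classical inhibitors alone in the numerator it was 1.07 with IL-17A and 0.444 with vehicle. Without division by length the ratio of all 5 IkB genes to the Rel family was 0.614 with IL-17A and 0.386 with vehicle, below 1 in both libraries.

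Within the Rel family, Nfkb2 took 27.6% of the summed level with IL-17A and 20.8% with vehicle, and Relb 19.0% and 14.1%. Rela took 23.7% with IL-17A and 32.7% with vehicle, and Nfkb1 28.9% and 31.2%. The non-canonical subunits thus held a higher share with IL-17A, and Rela a lower one. Rel took 0.665% with IL-17A and 1.18% with vehicle.

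**Figure D4:**
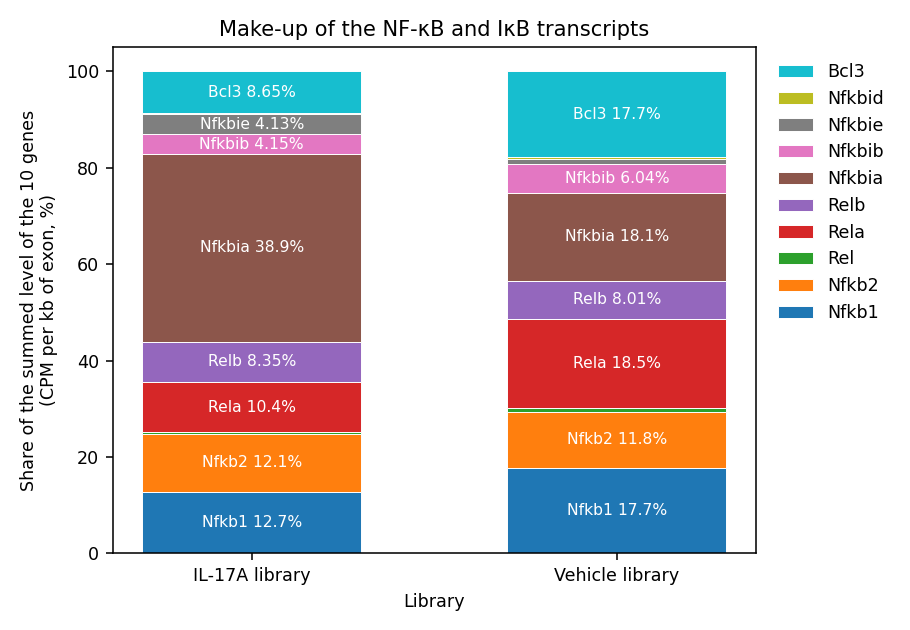
Share of each gene in the summed level of the 10 genes (CPM per kb of exon, in percent), with the IL-17A library on the left and the vehicle library on the right. Nfkbia takes 38.9% with IL-17A and 18.1% with vehicle.

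Set beside the motif search, the genes with a kB match fell on both sides of the 2-fold limit. Nfkbie, Nfkbia and Nfkb2 had a match and were at least 2-fold higher. Rel and Nfkbid had a match and were within 2-fold, as were Rela, Nfkbib and Bcl3, which had none. With a looser motif that contains the consensus (GGG, any 5 bases, then CC, on either strand), 7 of the 8 genes had a match, against 48.7% of all genes in the table.

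Other genes of the pathway were described from lists by role, chosen with earlier results of these data known. In the IKK complex, 1 of 3 genes was at least 2-fold higher, the catalytic subunit Ikbkb at 2.30-fold (interval 2.15 to 2.47), and the median log2 ratio was 0.39. The other catalytic subunit, Chuk, had a ratio of 1.31. Of 12 adaptors and kinases between the receptor and IKK, 0 passed the limit in either direction and the median was 0.01. The ratio was 1.64 for Traf3ip2 and 1.49 for Traf2.

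In the non-canonical pathway 2 of 8 genes passed the limit upwards and 0 downwards, and the median log2 ratio was 0.75. Birc3, a ubiquitin ligase of the complex that degrades the kinase NIK, was 4.97-fold higher, and the receptor Cd40 4.39-fold. Map3k14, which encodes NIK itself and was named after its value was seen, had 699 counts with IL-17A and 631 with vehicle, a ratio of 1.20. None of the 6 genes of the ubiquitin ligase that removes phosphorylated IkB passed the limit, and their median was 0.13. Its scaffold Cul1 had a ratio of 1.57 and Btrc, which recognises the phosphorylated site, 1.24.

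Of the 8 negative regulators, 3 passed the limit upwards and 0 downwards (median 0.85). Tnfaip3, the deubiquitinase A20, was 36.4-fold higher (interval 30.7 to 43.5) and its partner Tnip1 8.18-fold. Nfkbiz, the remaining nuclear IkB gene and a known effector of IL-17, had 4306 counts with IL-17A and 2366 with vehicle. Its ratio of 1.98 (interval 1.88 to 2.08) lay at the limit, above those of Bcl3 and Nfkbid, whose intervals did not overlap it. Nfkbil1, an IkB-like gene, had a ratio of 0.842.

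Of 24 measured textbook NF-kB targets, 22 passed the limit upwards and 0 downwards (median 3.37). The 4 with the highest ratios were Nos2 with 451 and 2 counts, Cxcl2 with 1286 and 7, Csf2 with 93 and 1, and Csf3 with 1553 and 25, in the IL-17A and vehicle libraries. These 4, and Traf1, Ccl5, Ccl20 and Tnf, had at most 25 counts with vehicle and were measured through their IL-17A counts. The count of 22 and the median are therefore not independent of the filter. With a minimum of 1 count, 23 of 25 listed targets passed the limit upwards, against 9.46% of all genes. The target added at this minimum, Cd83, had only 4 counts with IL-17A and 2 with vehicle. The targets with few vehicle counts stayed in this count too. All 5 NFAT genes, whose products carry a related Rel domain, were within 2-fold (median -0.06), and so were all 9 cofactor genes (median 0.00). The lists of targets and of negative regulators share Tnfaip3, Tnip1 and Zc3h12a, and Birc3 is on both the target and the non-canonical list. Medians were 1.02 for the 5 Rel-family genes and 0.95 for the 5 IkB genes, between those of the targets and of the upstream adaptors.

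**Figure D5:**
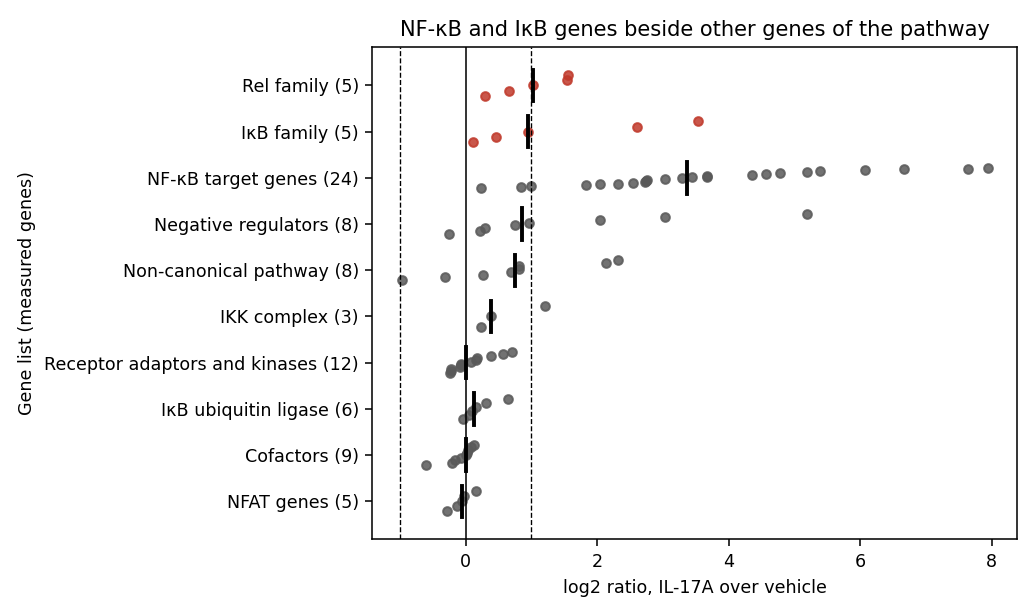
Log2 ratio of IL-17A over vehicle for each measured gene of the Rel and IkB families (red) and of other lists of the pathway (grey), with a black bar at each median, dashed lines at 2-fold and the number of genes in brackets. The 24 target genes have the highest median (3.37), and the 12 receptor adaptors and kinases lie within 2-fold.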

How the data were processed

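Per the labels' protocols, total RNA was extracted with a PureLink kit and sequenced from Illumina stranded mRNA libraries. STAR, featureCounts and mm10 are named in the submitters' processing notes; their versions, the annotation, the strand setting and the handling of multiply aligned reads are not given there. The authors deposited raw whole-number counts per gene symbol, 1 column per library. Library sizes were scaled with TMM (edgeR 4.0.16, R 4.3.3), and CPM is a count over the scaled size. Ratios were taken for genes with at least 50 summed counts, with exact 95% Clopper-Pearson intervals of the IL-17A share of the counts, and were called at 2-fold. The calculation was run on simulated Poisson counts, which carry only the error that the intervals assume. This checked the arithmetic and not the spread of real libraries. No test was made, since a single library per group allows none. Exonic length is the union of exons of coding transcripts in GENCODE M21. The interval of a ratio of sums is a normal approximation on the log scale. The genes, lists and limits were chosen with earlier results of these data known; named genes are all 10, Nfkbiz and the 2 genes (4 for targets) of each pathway list with the highest absolute ratio. Of the fixed lists, 3 lymphocyte markers, 1 mural marker and 1 alternative symbol of the ubiquitin ligase were not analysed here. Counts of 0 allow up to 3 counts, or 0.127 CPM (IL-17A) and 0.123 CPM (vehicle) of the unscaled totals. Alternatives were median-ratio size factors from DESeq2 1.42.0, total-count and upper-quartile scaling, other minimums, fold limits and motifs, and a prior count.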

Additional observations from a re-analysis of the deposited data

How the results depend on the processing

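The count of NF-kB and IkB genes at least 2-fold higher was 5 with median-ratio size factors (against 5.16% of all genes) and with minimums of 1 (9.46%) or 200 counts (4.42%). It was 4, without Nfkb1, with total-count (4.76%) and with upper-quartile scaling (4.92%), 7 at a 1.5-fold limit and 2 at a 3-fold limit. The count lower was 0 under each of these. Over all genes the counts higher and lower were 1688 and 1597 with a minimum of 1 count, 1364 and 1117 at 1.5-fold, 340 and 219 at 3-fold, and 507 and 275 with a minimum of 200; in each case the rule itself takes in more or fewer genes. Total-count scaling shifted every log2 ratio by -0.07 and upper-quartile scaling by -0.04. No ratio of the 10 genes changed direction under any scaling or a prior count of 2. The interval of Rel, with a lower end at log2 0.03, no longer lay wholly above 0 under these 2 shifts. The ratio of IkB to Rel-family sums was 0.614 with IL-17A and 0.386 with vehicle when levels were not divided by length. The kB consensus was found in 6 of 8 genes, Bcl3 added, when the window ran to 50 bases past the start, against 9.55% of all genes. For the other lists and genes the same settings were chosen after seeing the data. Under the 3 scalings and a minimum of 200, 0 list counts moved by over 1.5 times; 7 did at 1.5-fold (non-canonical genes higher were then 5), 1 at 3-fold (0 in the IKK complex) and 2 with a minimum of 1. No paired analysis was possible because each group held 1 library, and no library could be left out. Depth limits Nfkbid and Rel most.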
